A study of Mus musculus with 30 samples.

Results

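The response difference of the 2646 clones asks whether RAFi/MEKi, a combination of a RAF inhibitor and a MEK inhibitor, changed messenger RNA differently in tumours of clone 2646R than in tumours of clone 2646TN. It was computed for every gene as the treated-to-untreated log2 change in 2646R minus that in 2646TN, from the 12 libraries of these clones out of 30 in the series, and 13286 genes were tested. The 4 groups were untreated 2646TN, treated 2646TN, untreated 2646R and treated 2646R, with 3 tumours each, grown under the skin from YUMM1.7 mouse melanoma cells (strain C57BL/6). All 4 groups share the YUMM1.7 background, a line with an activated Braf allele, and each clone is a single clone isolated by CaTCH barcoding, so the tests cover the spread between tumours and not between clones. Live GFP-positive cells were sorted from collagenase-digested tumours after staining for CD45, a marker of immune cells. The labels use TN and R as names without spelling them out, and they give neither the drugs' names nor their doses, the length of treatment or the age of the mice.

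RAF and MEK are successive kinases of the pathway that ends in ERK, and in melanoma with activated Braf this pathway drives division and a set of feedback genes. Stress transcripts are governed separately: ATF4 switches on amino acid transport and synthesis, transfer RNA charging and the factor Ddit3 when amino acids are short or the endoplasmic reticulum is under strain, and NRF2 switches on glutathione and detoxification genes. Tumour tissue also holds macrophages, vessels and fibroblasts, whose transcripts can be carried into a sorted sample.

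The 12 libraries held 3022801 to 5278453 counts (median 3994514), and replicates correlated at a Spearman's rho of 0.962 to 0.983. The lowest values were those of treated 2646TN replicate 3 with replicates 1 and 2 (0.966 and 0.962) and of untreated 2646R replicate 1 with replicate 3 (0.963). Of the defining pigment cell markers, Tyr, Tyrp1, Dct and Mlana had 0 counts in all 12 libraries and Pmel had 29, while the neural crest factor Pax3 had 8191 and Mitf 1230. The other listed melanoma lineage markers were low, with 252 counts for S100b and 92 for Sox10. Levels are in CPM, counts scaled to a common library total with TMM factors, each gene's level is a 3′ tag count and is not compared with that of another gene, and n = 3 tumours per group throughout. The test throughout is edgeR's quasi-likelihood test, and a gene counts as called where its p, adjusted over the whole table by the method of Benjamini and Hochberg, is under 0.05.

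Responses of the clones differed for 551 genes, 4.15% of those tested. For 314 genes (2.36%) the response was higher in 2646R than in 2646TN, and for 237 (1.78%) it was lower. Of the 314, fitted values rose in 2646R and fell in 2646TN for 239, rose in both for 67 and fell in both for 8. Of the 237, fitted values fell in 2646R and rose in 2646TN for 155, fell in both for 76 and rose in both for 6. For 494 of the 551 genes, and for 1170 of all tested genes, no treated-to-untreated ratio between single tumours of 2646R overlapped those of 2646TN. The 2646R response on its own held 2647 called genes (19.9% of those tested) and the 2646TN response 523 (3.94%).

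**Figure D1:**
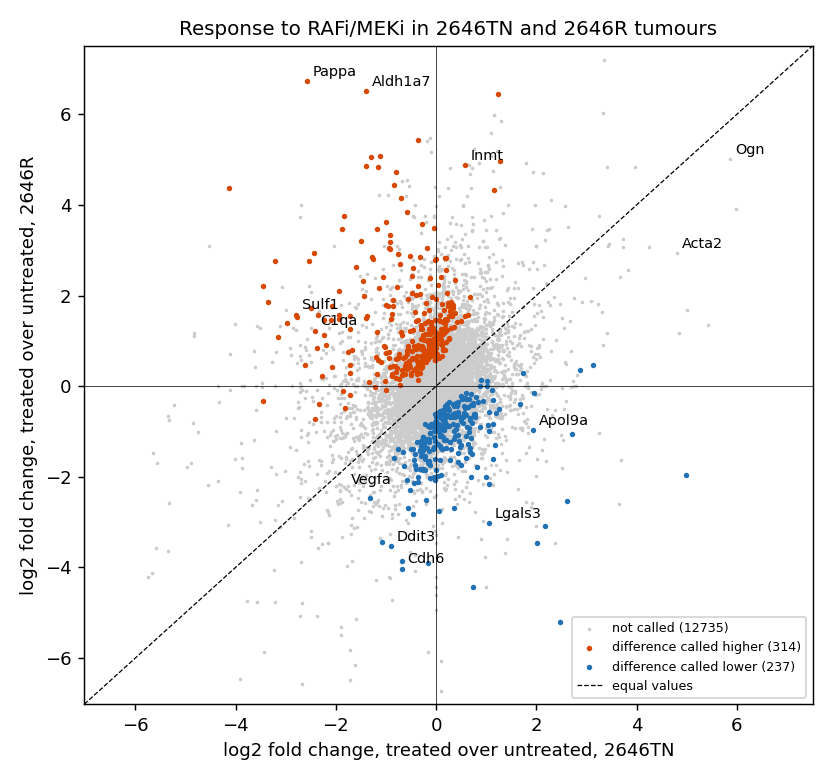
Each point is 1 of the 13286 tested genes, with the log2 fold change under RAFi/MEKi in 2646TN on the horizontal axis and in 2646R on the vertical axis. Orange points (314) lie above the dashed line of equal values and blue points (237) below it, and most of the orange points lie where 2646R rose and 2646TN fell. Genes without counts in a group, such as Pappa and Aldh1a7, are drawn at a fitted value whose size depends on the prior count.

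The difference in response can also be read as a change in the gap between the clones, since it equals the log2 ratio of 2646R over 2646TN with treatment minus the same ratio without. For 447 of the 551 called genes (81.1%) the fitted gap was larger without treatment than with it, against 8086 of all 13286 genes (60.9%). The median absolute gap of the called genes was 1.27 on the log2 scale in untreated tumours and 0.43 in treated tumours, while over all genes it was 0.50 and 0.37. A total of 4869 genes (36.6%) differed between the untreated clones and 2669 (20.1%) between the treated clones. These gaps come from the same 12 libraries as the calls and are given as a description.

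**Figure D2:**
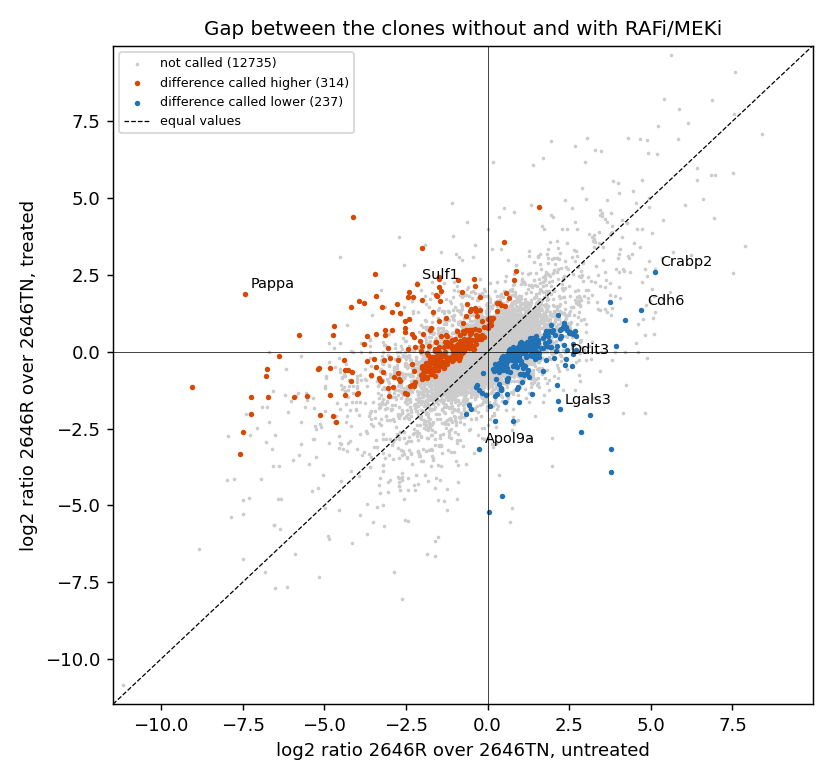
Each point is 1 tested gene, with the log2 ratio of 2646R over 2646TN in untreated tumours on the horizontal axis and in treated tumours on the vertical axis, and the dashed line marks equal ratios. Called genes stretch along the horizontal axis, with a median absolute ratio of 1.27 untreated and 0.43 treated.

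These counts moved when single tumours were left out and when a covariate of macrophage marker transcripts, described further on, was added. Without treated 2646R replicate 1 the test called 352 genes, without untreated 2646R replicate 1 it called 362, and without treated 2646TN replicate 3 it called 831. The count of higher genes was 184, 205 and 488 without untreated 2646R replicate 1, treated 2646R replicate 1 and treated 2646TN replicate 3. The count of lower genes was 153, 157, 137 and 147 without untreated 2646TN replicate 1, untreated 2646TN replicate 2, treated 2646TN replicate 1 and treated 2646R replicate 1. With the mean macrophage marker level of each library as a covariate 37 genes were called. That mean log2 level was 3.56 to 4.17 in untreated and 1.31 to 2.53 in treated 2646TN. In 2646R it was 1.72 to 2.56 untreated and 2.90 to 3.27 treated. The covariate thus follows the tested contrast. A call kept or lost with it cannot separate macrophage transcripts from a response of the clone.

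Among the genes named by size, Lgals3 had opposite fitted responses in the clones. It encodes the sugar-binding protein galectin-3 (ENSMUSG00000050335, GRCm38 chr14:47367751-47386160, plus strand). Untreated 2646TN tumours held 132, 149 and 153 CPM and treated ones 359, 268 and 275 CPM, while untreated 2646R tumours held 709, 619 and 673 CPM and treated ones 80.8, 82.7 and 82.0 CPM. Every treated 2646TN tumour was above every untreated one, every treated 2646R tumour was below all tumours of the other 3 groups, and the order of the clones was inverted between untreated and treated tumours. The log2 response was -3.03 ± 0.33 (SE, edgeR adjusted p = 1.211e-06) in 2646R and 1.05 ± 0.31 (adjusted p = 0.0595, not called) in 2646TN, a difference of -4.08 ± 0.45 (edgeR adjusted p = 2.616e-05). The call of Lgals3 held without each single tumour and with the macrophage covariate (-4.28, adjusted p = 0.0143).

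Sqstm1, which encodes the autophagy receptor p62 and is itself a target of NRF2 (ENSMUSG00000015837, chr11:50199366-50210827, minus strand), stood at 476, 509 and 534 CPM in untreated and 412, 351 and 451 CPM in treated 2646TN tumours. In 2646R it was 1128, 964 and 1122 CPM untreated and 281, 302 and 317 CPM treated. The untreated 2646R tumours were the highest of the 12 and the treated ones the lowest. The difference was -1.51 ± 0.21 (edgeR adjusted p = 3.326e-05), and it also held under each single omission and the macrophage covariate (-1.56, adjusted p = 0.0226). Sqstm1 was the only called member among 20 tested autophagy genes (beside 4.15% of all genes), whose median difference was 0.11.

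Transcripts of the ATF4 response fell in 2646R for most members of the list, from a higher untreated level, and in 2646TN for fewer. Of 26 tested members, 21 fell in 2646R (10.2% of all genes fell there) and 6 fell in 2646TN (2.24% of all genes). The median response was -1.68 in 2646R and -0.87 in 2646TN. Without treatment 18 of the 26 were higher in 2646R than in 2646TN (18.3% of all genes), and with treatment 4 were (10% of all genes). The difference itself was called lower for 2 members, Ddit3 and Slc6a9 (beside 1.78% of all genes), and higher for 0. Of the 26 values 23 were below 0, with a median of -0.70, against 0.01 over all genes. Summed over the list, levels scaled to raw library totals were 2315 to 2592 CPM in untreated and 1346 to 1895 CPM in treated 2646TN, and 4875 to 5947 CPM in untreated and 1995 to 2136 CPM in treated 2646R.

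Ddit3, which encodes the stress-induced transcription factor CHOP (ENSMUSG00000025408, chr10:127290774-127296288, plus strand), measured 96.0, 102 and 113 CPM in untreated and 47.7, 41.6 and 76.5 CPM in treated 2646TN tumours. In 2646R it measured 647, 468 and 522 CPM untreated and 42.8, 49.0 and 50.1 CPM treated. The treated tumours of both clones overlapped, and the untreated ones did not. The difference in response was -2.63 ± 0.37 (edgeR adjusted p = 0.000177), and treated levels differed between the clones by -0.23 ± 0.27 (adjusted p = 0.581). Slc6a9, a glycine transporter gene, went from 53.3 ± 4.11 to 39.4 ± 3.95 CPM (SD) in 2646TN and from 105 ± 19.8 to 23.8 ± 4.38 CPM in 2646R, a difference of -1.71 ± 0.27 (adjusted p = 0.000241). With the macrophage covariate neither gene passed the threshold (Ddit3 -2.33, adjusted p = 0.0624, and Slc6a9 -1.31, adjusted p = 0.164).

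Other members had large fitted differences that did not pass. Trib3, a pseudokinase gene induced by CHOP and ATF4, measured 19.2, 22.4 and 24.1 CPM in untreated and 4.24, 0.65 and 11.9 CPM in treated 2646TN, against 210, 163 and 220 CPM in untreated and 5.64, 5.39 and 3.8 CPM in treated 2646R. Treated tumours of both clones overlapped, and the spread among the treated 2646TN tumours was wide. Its difference was -3.41 ± 0.98 (edgeR adjusted p = 0.0514). Asns, which encodes asparagine synthetase, had -1.10 ± 0.62 (adjusted p = 0.371), and Chac1, which encodes a glutathione-degrading enzyme, had -1.62 ± 0.77 (adjusted p = 0.260).

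The promoter windows of Trib3 and Chac1 are shown because each holds a match to the ATF4 composite element, searched as TGATGNAA on either strand, and they are the members with a match and the smallest p-values, followed by Vldlr. The windows run from 250 bases before to 50 bases after the RefSeq start (GRCm38.p6), 5′ to 3′ along the gene, with the match in capitals. The Trib3 window is chr2:152344011-152344310 on the minus strand, with its match at position +15 from the start site, and the Chac1 window is chr2:119350992-119351291 on the plus strand, with its match at -193.
Trib3: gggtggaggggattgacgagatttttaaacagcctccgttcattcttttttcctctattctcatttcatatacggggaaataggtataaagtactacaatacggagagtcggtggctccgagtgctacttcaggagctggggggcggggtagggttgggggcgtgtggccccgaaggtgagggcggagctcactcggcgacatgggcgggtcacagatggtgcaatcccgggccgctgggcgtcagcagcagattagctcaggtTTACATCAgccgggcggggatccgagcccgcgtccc
Chac1: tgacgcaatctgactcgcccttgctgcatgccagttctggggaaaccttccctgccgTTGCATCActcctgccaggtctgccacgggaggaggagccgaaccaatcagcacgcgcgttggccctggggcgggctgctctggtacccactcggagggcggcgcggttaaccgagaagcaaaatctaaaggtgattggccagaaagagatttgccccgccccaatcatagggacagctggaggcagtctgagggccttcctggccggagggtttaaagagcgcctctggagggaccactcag
A match was found in 7 of the 22 tested ATF4 list members that have a window (31.8%), beside 4.51% of all 27025 genes with a window and 3.97% of all 32851 windows. This describes the letters only, and binding was not measured.

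Enzymes that charge transfer RNAs, many of them ATF4 targets, fell in 2646R and were not called in 2646TN. Of 20 tested aminoacyl-tRNA synthetase genes 13 fell in 2646R (beside 10.2% of all genes) and 0 in 2646TN (2.24%), where 0 also rose (1.69%). The difference was called lower for 5 of the 20 (25%, beside 1.78% of all genes) and higher for 0, and the median difference was -0.67. Sars, the seryl-tRNA synthetase gene, measured 227, 254 and 263 CPM in untreated and 196, 163 and 259 CPM in treated 2646TN tumours. In 2646R it measured 634, 494 and 501 CPM untreated and 194, 203 and 216 CPM treated, so that only the untreated 2646R tumours stood apart. Its difference was -1.15 ± 0.25 (edgeR adjusted p = 0.00666). Differences of the other called members were -1.35 ± 0.31 for Wars, -0.78 ± 0.19 for Rars, -1.09 ± 0.27 for Aars and -1.03 ± 0.25 for Iars (edgeR adjusted p = 0.00917, 0.0119, 0.0175 and 0.0147). The count of called synthetases ran from 4 to 7 over the single omissions, the 7 without treated 2646TN replicate 3, and with the macrophage covariate it was 0. Endoplasmic reticulum chaperones of the unfolded protein response did not follow. Of 21 tested genes 1 was called lower (beside 1.78% of all genes), Herpud1 (-0.86 ± 0.25, edgeR adjusted p = 0.0457). Its call was lost without 11 of the 12 tumours in turn (adjusted p up to 0.145), and the list's median difference was -0.05.

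Of 20 tested NRF2 targets 11 fell in 2646R (beside 10.2% of all genes) and 1 in 2646TN (2.24%). The difference was called lower for 5 (25%, beside 1.78% of all genes) and higher for 0, with a median of -0.55. This count was 3 without untreated 2646TN replicate 2, treated 2646TN replicate 1, treated 2646TN replicate 2 or treated 2646R replicate 1, 3 in the fit of the groups compared, and 0 with the macrophage covariate. Gclc, the catalytic subunit of the enzyme that limits glutathione synthesis, measured 15.4, 16.5 and 17.5 CPM in untreated and 21.5, 15.6 and 19.7 CPM in treated 2646TN. It measured 101, 75.8 and 82.5 CPM in untreated and 32.3, 36.1 and 32.1 CPM in treated 2646R, where all tumours stayed above those of 2646TN. The difference was -1.57 ± 0.32 (edgeR adjusted p = 0.00316). Gclm, its modifier subunit, had -1.07 ± 0.28 (adjusted p = 0.0217), the quinone reductase gene Nqo1 -2.25 ± 0.53 (0.0111), the sulfiredoxin gene Srxn1 -1.12 ± 0.30 (0.0286) and the efflux pump gene Abcc1 -1.27 ± 0.29 (0.00850). The call of Nqo1 was lost without treated 2646TN replicate 2 (-1.91, adjusted p = 0.0575). The heme oxygenase gene Hmox1 (-0.55, adjusted p = 0.728) and the cystine transporter gene Slc7a11 (0.65, adjusted p = 0.717) were not called.

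Lower differences were also called for Cdh6, Snai2 and Cspg4. Cdh6, a cadherin gene of neural crest cells (ENSMUSG00000039385, chr15:13028701-13173675, minus strand), measured 12.1, 5.30 and 5.17 CPM in untreated and 5.08, 4.55 and 4.54 CPM in treated 2646TN. In 2646R it fell from 235, 179 and 182 CPM to 16.5, 10.1 and 9.61 CPM. Untreated 2646R tumours were the only ones with high Cdh6. The difference was -3.35 ± 0.62 (edgeR adjusted p = 0.00267).

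Snai2, which encodes the transcription factor Slug, measured 22.2, 19.3 and 16.0 CPM in untreated and 32.8, 43.5 and 25.7 CPM in treated 2646TN, and 40.3, 31.0 and 41.8 CPM in untreated and 8.68, 13.8 and 10.4 CPM in treated 2646R. Treated 2646R tumours were below all others, and treated 2646TN tumours overlapped the untreated 2646R ones. Its difference was -2.60 ± 0.45 (edgeR adjusted p = 0.000954). Cspg4, which encodes the proteoglycan NG2 of melanoma cells and pericytes, had -2.20 ± 0.34 (adjusted p = 0.000246), with 34.3 ± 11.9 and 56.5 ± 18.7 CPM in untreated and treated 2646TN and 226 ± 42.6 and 80.6 ± 12 CPM in 2646R. Of 18 tested mesenchymal and invasive genes 4 were called lower (Snai2, Fosl1, Tgfbi and Itga5, beside 1.78% of all genes) and 0 higher, with a median of -0.26. This count was 1 in 9 of the 12 single omissions and 5 without treated 2646TN replicate 3. Of the neural crest and glial genes the transcription factor gene Tfap2a was lower (-0.91 ± 0.23, edgeR adjusted p = 0.0207), and its call was lost without 5 of the 12 tumours in turn (adjusted p up to 0.0794), while the water channel gene Aqp1 was higher.

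The 12 genes with the largest lower differences by the naming rule also held Ifi206, Cdsn, Serpina3f, Nipal1, Gpr137b, Angptl6, Apol9a, Cpeb2 and Arap2. Angptl6, a secreted angiopoietin-like factor gene, went from 20.5 ± 1.85 to 3.14 ± 2.02 CPM in 2646R and stood at 3.49 ± 1.30 and 4.37 ± 1.62 CPM in 2646TN (difference -3.04 ± 0.58, edgeR adjusted p = 0.00192). Apol9a, an interferon-inducible apolipoprotein gene of the mouse, instead rose from 6.15 ± 1.04 to 23.7 ± 3.97 CPM in 2646TN and stood at 5.22 ± 1.39 and 2.64 ± 0.31 CPM in 2646R (-2.90 ± 0.57, adjusted p = 0.00268). Ifi206 and Serpina3f likewise had their highest levels in treated 2646TN (12.8 ± 4.82 and 10.7 ± 3.34 CPM). Ifi206, Serpina3f, Apol9a and Gpr137b have near-identical relatives, to which reads may have been split. The calls of Ifi206 and Gpr137b were lost without 9 and 5 of the 12 tumours in turn (adjusted p up to 0.129 and 0.396).

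Among the higher genes Sulf1, which encodes an enzyme that trims heparan sulfate outside the cell (ENSMUSG00000016918, chr1:12692277-12861192, plus strand), measured 155, 159 and 119 CPM in untreated and 25.7, 15.9 and 20.7 CPM in treated 2646TN. In 2646R it measured 22.2, 35.3 and 39.9 CPM untreated and 100.1, 89.0 and 98.9 CPM treated. Every treated 2646TN tumour was below every untreated one and every treated 2646R tumour above every untreated one, so the clone with the higher level changed. The response was 1.57 ± 0.42 in 2646R and -2.79 ± 0.44 in 2646TN, a difference of 4.36 ± 0.61 (edgeR adjusted p = 0.000247). It held with the macrophage covariate (4.30, adjusted p = 0.0495). Npnt, which encodes the integrin ligand nephronectin (ENSMUSG00000040998, chr3:132881745-132950291, minus strand), had the smallest adjusted p of all genes and was named after its values were seen. It measured 51.7, 47.4 and 58.0 CPM in untreated and 16.1, 18.8 and 22.7 CPM in treated 2646TN, and 13.8, 20.1 and 18.6 CPM in untreated and 92.0, 78.5 and 35.7 CPM in treated 2646R. Treated 2646TN and untreated 2646R overlapped at the low level, and the difference was 3.42 ± 0.36 (adjusted p = 5.836e-07).

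Aqp1, which encodes a water channel, was the most abundant of these transcripts. It measured 7403, 7999 and 9173 CPM in untreated and 3985, 3197 and 4788 CPM in treated 2646TN, and 1218, 1827 and 1939 CPM in untreated and 3291, 3003 and 2883 CPM in treated 2646R. Levels moved towards each other, and treated tumours of the clones overlapped (log2 ratio -0.38 ± 0.20, edgeR adjusted p = 0.194). The difference in response was 1.92 ± 0.29 (adjusted p = 0.000205).

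**Figure D3:**
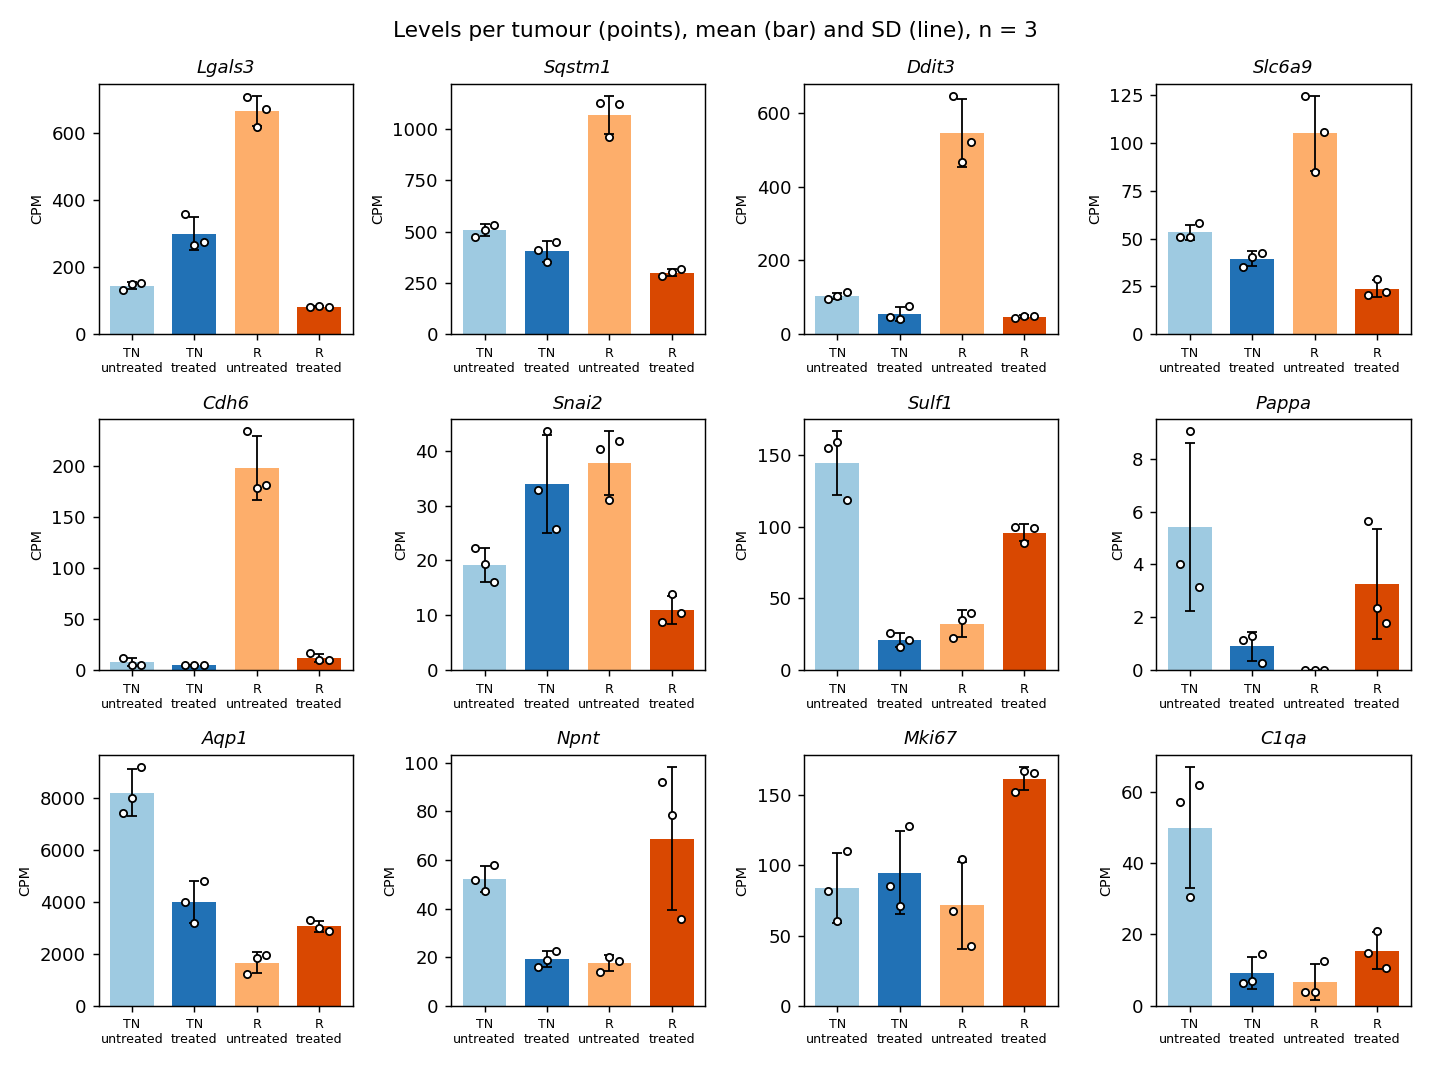
Levels in CPM with TMM factors of 12 genes in the 4 groups: points are the 3 tumours of a group, bars their mean and lines the SD. In the top row and in Cdh6 untreated 2646R is the highest group; Sulf1 and Npnt are high in untreated 2646TN and treated 2646R; Mki67 is highest in treated 2646R (162 ± 8.25 CPM) and was not called in the difference.

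Several higher genes belong to insulin-like growth factor and phosphoinositide kinase signalling. Pappa encodes a protease that cleaves IGF-binding proteins, among them the product of Igfbp4. Pappa measured 4.03, 9.04 and 3.15 CPM in untreated and 1.13, 1.30 and 0.25 CPM in treated 2646TN. It had 0 counts in all 3 untreated 2646R tumours and 5.64, 2.34 and 1.77 CPM in the treated ones, a rise of at least 14.8-fold against a floor of 3 counts over the untreated group. The difference was called (edgeR adjusted p = 0.000198), and it held under the macrophage covariate (0.0193), but the size of its fitted value is no measure because a group had no counts. Igfbp4 went from 6839 ± 1091 to 4635 ± 1069 CPM in 2646TN and from 2380 ± 378 to 4396 ± 1015 CPM in 2646R (1.45 ± 0.33, adjusted p = 0.0111). The third higher member was Irs1, an adaptor of the insulin and IGF receptors, at 1.27 ± 0.29 (adjusted p = 0.00917), and Igfbp6 was lower at -1.46 ± 0.31 (0.00475). These were 3 higher (beside 2.36% of all genes) and 1 lower (1.78%) of 11 tested IGF genes, whose median was 0.18, and the receptor gene Igf1r stood at 0.18 ± 0.19 (0.679). Pik3r1, the regulatory subunit of the phosphoinositide kinase (1.29 ± 0.29, adjusted p = 0.00866), and Sesn3, a FOXO target that restrains growth signalling (1.11 ± 0.27, 0.0122), were the 2 called genes, both higher (2.36% of all genes), of 19 in the PI3K, AKT and FOXO list, with a median of 0.05.

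Of 9 tested Wnt target and feedback genes 2 were higher (beside 2.36% of all genes) and 0 lower (1.78%), with a median of 0.85. Axin2, a feedback inhibitor of Wnt signalling, measured 21.2, 20.9 and 13.5 CPM in untreated and 9.04, 6.49 and 7.32 CPM in treated 2646TN. It measured 0.39, 1.89 and 0.27 CPM in untreated and 8.90, 5.62 and 4.55 CPM in treated 2646R, where treated levels overlapped those of treated 2646TN. The difference was 4.14 ± 0.83 (edgeR adjusted p = 0.00289). Dkk2, a secreted Wnt antagonist gene, had 0.85 ± 0.25 (adjusted p = 0.0414), lost without 7 of the 12 tumours in turn (adjusted p up to 0.107). Rspo3, which encodes a secreted enhancer of Wnt signalling and was named by size, had 3 counts in untreated and 75 in treated 2646R, a ratio of 25.9 (95% Poisson interval 8.85 to 126, counting error only), and 27.8 ± 7.53 and 15.8 ± 9.1 CPM in untreated and treated 2646TN. Its call (adjusted p = 0.0330) was lost without 6 of the 12 tumours in turn (adjusted p up to 0.114).

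Other genes named by size among the higher ones were Aldh1a7, Moxd1, Tmem176a, Tmem176b, Clec4n, Reps2, Rapgefl1, Inmt and the unnamed transcript Gm48267. Aldh1a7, an aldehyde dehydrogenase gene whose reads may be shared with its close relative Aldh1a1, had 0 counts in untreated 2646R and rose at least 12.4-fold there, and stood at 16.6 ± 4.12 and 6.28 ± 0.98 CPM in 2646TN (edgeR adjusted p = 0.000247 for the difference). Reps2 also had 0 counts in untreated 2646R and rose at least 12.1-fold, and its call (adjusted p = 0.0486) was lost without 11 of the 12 tumours in turn (adjusted p up to 0.130). Inmt, a methyltransferase gene, went from 2.08 ± 0.16 to 62.1 ± 33.3 CPM in 2646R and stood at 59.8 ± 19.3 and 88.6 ± 56.5 CPM in 2646TN (4.31 ± 0.90, adjusted p = 0.00803). Clec4n, which encodes a lectin receptor of myeloid cells, fell from 6.98 to 0.64 CPM in 2646TN and stood at 0.68 and 2.40 CPM in 2646R (5.23 ± 1.17, adjusted p = 0.00785, and 1.45, adjusted p = 0.804, with the macrophage covariate).

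Matrix genes split. Loxl1, a cross-linking enzyme of elastic fibres, had a higher response in 2646R (1.03 ± 0.20, edgeR adjusted p = 0.00226), as did Mfap4 (3.68 ± 1.01, 0.0401), the only other called gene of 20 tested elastic fibre and proteoglycan genes, of which 7 rose in 2646R (9.7% of all genes) and 4 in 2646TN (1.69%). Of 18 collagen chains Col16a1 was higher (0.99 ± 0.26, edgeR adjusted p = 0.0227) and Col8a1 (-2.09 ± 0.50, 0.0189) and Col5a3 (-1.25 ± 0.34, 0.0365) were lower. Beside the counts of both lists, 2.36% of all genes were higher and 1.78% lower in the difference. Col8a1 measured 76.1, 72.6 and 76.0 CPM in untreated and 352, 285 and 231 CPM in treated 2646TN, against 129, 204 and 207 CPM in untreated and 158, 163 and 168 CPM in treated 2646R. The rise was seen in 2646TN, and the 2646R groups overlapped. Single omissions ended the calls of Mfap4 (10 of 12, adjusted p up to 0.124), Col5a3 (9 of 12, up to 0.107), Col8a1 (3 of 12, up to 0.0639) and Col16a1 (without untreated 2646R replicate 1, 0.0706). The smooth muscle actin gene Acta2 (-1.86 ± 0.67, adjusted p = 0.129) and the proteoglycan gene Ogn (-0.86 ± 1.49, 0.825), which rose in both clones, were not called in the difference.

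Macrophage markers were the list with the largest share of called genes. Of 15 tested markers 10 (66.7%, beside 2.36% of all genes) had a higher response in 2646R and 0 a lower one, all 15 values were above 0, and the median was 3.36. In 2646TN 9 of the 15 fell (2.24% of all genes fell there) and in 2646R 4 rose (9.7% of all genes rose there). Lyz2, the lysozyme gene of myeloid cells, measured 56.9, 28.7 and 58.0 CPM in untreated and 12.1, 8.77 and 16.4 CPM in treated 2646TN, and 9.62, 4.26 and 16.4 CPM in untreated and 45.4, 32.3 and 51.4 CPM in treated 2646R. Untreated 2646TN and treated 2646R formed the high pair of groups, without overlap with the other 2 groups. The difference was 4.04 ± 0.63 (edgeR adjusted p = 0.000392). The complement gene C1qa, made by tissue macrophages, measured 57.2, 30.6 and 62.0 CPM in untreated and 6.49, 6.82 and 14.4 CPM in treated 2646TN, and 3.93, 3.79 and 12.6 CPM in untreated and 14.8, 20.9 and 10.6 CPM in treated 2646R (3.65 ± 0.67, adjusted p = 0.00207), where treated 2646TN, untreated 2646R and treated 2646R overlapped.

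Summed over the 18 listed macrophage markers, levels scaled to raw library totals were 304 to 501 CPM in untreated 2646TN, 77.7 to 172 CPM in treated 2646TN, 55.7 to 113 CPM in untreated 2646R and 212 to 286 CPM in treated 2646R. None of the 18 was at 0 over the 12 libraries, although the pan-immune marker Ptprc, which encodes CD45, had only 103 counts in all. In bulk samples fewer cells of a type and less RNA per cell cannot be told apart. Untreated 2646TN and treated 2646R held the higher sums, and they were also the groups with the higher levels of Sulf1 and Npnt. Fitted values fell in 2646TN and rose in 2646R for 239 of the 314 higher genes, so such a pattern is common among them. A link of these genes to macrophages was not tested. With the mean macrophage marker level as a covariate the median absolute difference of the 541 called genes that are no macrophage markers went from 1.28 to 1.12 and their median SE from 0.295 to 0.43, 538 of them kept their sign, and 32 of the 551 genes stayed among the 37 called. The 10 called markers went from a median of 3.75 to 0.52, a drop that follows from building the covariate out of these same markers. Of the named genes Angptl6, Apol9a, Col5a3, Irs1, Lgals3, Pappa, Sesn3, Sqstm1 and Sulf1 passed the threshold with the covariate.

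Markers of other cell types were summed in the same way. Endothelial markers, summed over 12 genes, were 271 to 288, 174 to 249.3, 191 to 232 and 148 to 199 CPM in untreated 2646TN, treated 2646TN, untreated 2646R and treated 2646R. Of 9 tested endothelial genes 1 was higher (beside 2.36% of all genes), the vessel protein gene Plvap (1.70 ± 0.40, edgeR adjusted p = 0.0139, and 0.0513 without untreated 2646R replicate 1). Summed fibroblast markers were 4661 to 6870, 5494 to 13050, 5870 to 7175 and 14650 to 16690 CPM in the same order, with treated 2646TN replicate 3 the lowest of its group, and 0 of 12 tested markers were called in either direction (median 0.58). The fibroblast sum follows mainly collagen genes, with 281131 counts of Col1a2, 83018 of Col1a1 and 71404 of Col3a1 over the 12 libraries. Lum had 192, Dpt 110, Thy1 98 and Pi16 20. Pericyte and smooth muscle sums were 105 to 111, 280 to 796, 435 to 467 and 853 to 1114 CPM. In that list Acta2 had the most counts (15262), while Des had 24, Myh11 12, Higd1b 4 and Kcnj8 0. Which cells held the transcripts of these 2 lists was not tested. Dissociation stress genes, induced by tissue digestion, summed to 1624 to 2596, 798 to 1144, 1375 to 1830 and 1082 to 1897 CPM. Of these 15 genes, whose median was 1.18, 1 was called higher (beside 2.36% of all genes). It was Hspa1a (2.50 ± 0.61, edgeR adjusted p = 0.0225, lost without 4 of the 12 tumours in turn, adjusted p up to 0.0688). Hspa1a reads may be shared with its near copy Hspa1b. The part of the endothelial, fibroblast and dissociation transcripts in the called differences was not tested.

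**Figure D4:**
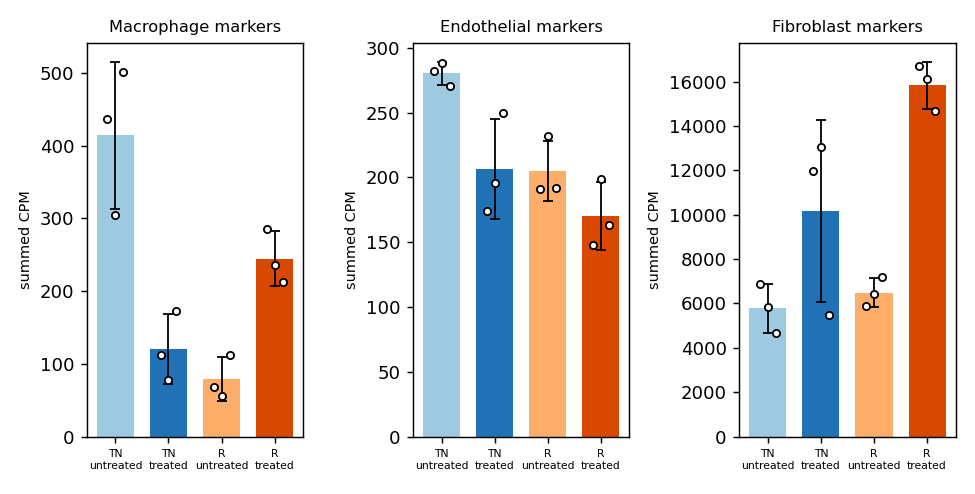
Summed CPM, scaled to raw library totals, of the macrophage, endothelial and fibroblast marker lists in the 4 groups: points are tumours, bars the mean and lines the SD of 3. Macrophage sums are high in untreated 2646TN (304 to 501 CPM) and treated 2646R (212 to 286 CPM). The fibroblast sum follows mainly the collagen genes Col1a1, Col1a2 and Col3a1.

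Of 18 tested MAPK output genes, which lie downstream of ERK, 0 were higher (beside 2.36% of all genes) and 1, the AP-1 factor gene Fosl1, was lower (1.78%), with a median difference of 0.01. In 2646R 4 of them fell (10.2% of all genes) and in 2646TN 3 did (2.24%). Fosl1 went from 186 ± 36.8 to 88.6 ± 4.85 CPM in 2646R and stood at 60.4 ± 6.15 and 82.2 ± 10.2 CPM in 2646TN (-1.52 ± 0.43, edgeR adjusted p = 0.0445), and its call was lost without 11 of the 12 tumours in turn (adjusted p up to 0.114). The feedback genes Dusp6 (0.86 ± 0.62, adjusted p = 0.516) and Spry2 (-0.49 ± 0.21, 0.209), the ERK-induced factor gene Etv4 (1.18 ± 0.41, 0.106) and the cyclin D1 gene Ccnd1 (-0.33 ± 0.26, 0.536) were not called. Of 21 tested AP-1 and immediate-early genes 0 were called higher and 2 lower, while 14 values were above 0 and the median was 0.39. Among the called ones Klf4, a factor gene of growth arrest, had -1.86 ± 0.40 (edgeR adjusted p = 0.00827). Of the D-type cyclins, their kinases and inhibitors, Cdk6 (-0.86 ± 0.19, 0.00803) was lower and its inhibitor gene Cdkn2c (1.00 ± 0.27, 0.0268, lost without 5 of the 12 tumours in turn, up to 0.106) was higher among 12 tested. Of all genes 1.78% were lower and 2.36% higher.

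Mitosis genes rose in 2646R and were not called in 2646TN, but the difference passed the test for 1 gene. Of 27 tested genes 17 rose in 2646R (beside 9.7% of all genes) and 0 rose or fell in 2646TN (1.69% and 2.24%), with median responses of 0.78 and -0.03. All 27 differences were above 0, between 0.19 and 1.32, with a median of 0.78, and Kif23, which encodes a motor protein of the dividing cell's midbody, was called. Kif23 measured 59.2, 43.6 and 56.9 CPM in untreated and 39.5, 53.6 and 52.8 CPM in treated 2646TN, against 69.1, 71.0 and 54.6 CPM in untreated and 118, 130 and 120 CPM in treated 2646R. Treated 2646R tumours were above all 9 others. The difference was 1.05 ± 0.25 (edgeR adjusted p = 0.0113). The proliferation marker Mki67 measured 81.6, 60.5 and 110 CPM, then 85.6, 70.8 and 128 CPM in 2646TN, and 67.8, 104 and 42.6 CPM, then 152, 167 and 166 CPM in 2646R (1.00 ± 0.34, adjusted p = 0.0922). The count of called mitosis genes was 10 without treated 2646TN replicate 3, the tumour with the highest mitosis sum of its group (2226 CPM, beside 1580 and 1762). DNA replication genes had 0 called of 28 and a median of 0.35.

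The Kif23 promoter window is shown because Kif23 is the called mitosis gene and the window holds a match to the core of the cell cycle homology region, searched as TTTGAA on either strand, at position +3 from the start site (chr9:61946750-61947049, minus strand, RefSeq, GRCm38.p6). Prc1, the list member with a match and the next smallest p, was not called (edgeR adjusted p = 0.0522) and has its match at -5.
Kif23: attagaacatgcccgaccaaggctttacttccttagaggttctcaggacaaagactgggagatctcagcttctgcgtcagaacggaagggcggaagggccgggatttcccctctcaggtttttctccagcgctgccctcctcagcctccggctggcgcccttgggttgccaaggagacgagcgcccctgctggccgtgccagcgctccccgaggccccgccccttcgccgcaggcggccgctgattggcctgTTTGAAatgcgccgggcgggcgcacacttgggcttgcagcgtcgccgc
A match was found in 17 of the 23 tested mitosis genes with a window (73.9%), beside 20.23% of all genes with a window and 17.89% of all windows, as a description of the letters.

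Metabolic lists moved in both clones. Of 28 tested glycolysis and hypoxia genes 25 fell in 2646R (beside 10.2% of all genes) and 18 in 2646TN (2.24%), with medians of -1.51 and -1.34. The difference, with a median of -0.30, was called lower for 1 (beside 1.78% of all genes). This was the phosphofructokinase gene Pfkp (-1.65 ± 0.43, edgeR adjusted p = 0.0293, lost without 8 of the 12 tumours in turn, up to 0.0918). Vegfa, the hypoxia-induced vessel growth factor gene, stood at -0.47 ± 0.20 (adjusted p = 0.198). Of 23 cholesterol synthesis genes 15 fell in 2646TN (beside 2.24% of all genes) and 6 in 2646R (10.2%), with medians of -1.31 and -0.54. All 23 differences were above 0 (median 0.74) and 0 passed the threshold. Hmgcs1, which encodes the synthase at the head of this pathway, had 0.98 ± 0.30 (adjusted p = 0.0656). Without treated 2646TN replicate 3 the test called 7 cholesterol genes higher.

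The type I interferon, interferon gamma and MHC class I lists had negative median differences, and 0 of their tested members passed the test. Of 32 type I interferon genes 11 rose in 2646TN (1.69% of all genes rose there) and 2 in 2646R (9.7%). Of the differences 28 were below 0, and the median was -0.78. Of 18 interferon gamma genes and 18 genes of MHC class I and antigen processing 0 were called, with medians of -1.23 and -1.17, and 17 of 18 values were below 0 in each. Summed type I interferon levels were 1811 to 2366 and 3912 to 4435 CPM in untreated and treated 2646TN, and 271 to 717 and 407 to 634 CPM in 2646R. The summed MHC class I level spread from 2288 to 8751 CPM among the 3 untreated 2646R tumours. Stat2, a transcription factor gene of the type I interferon response, had -0.95 ± 0.36 (edgeR adjusted p = 0.146). MHC class II genes went the other way, with a median difference of 1.76 and 6 of 7 values above 0. Of these 7 genes 1 was higher (beside 2.36% of all genes), the invariant chain gene Cd74 (2.38 ± 0.68, edgeR adjusted p = 0.0449). Its call was lost without 9 of the 12 tumours in turn (up to 0.122), and its value was -0.64 (adjusted p = 0.800) with the macrophage covariate.

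**Figure D5:**
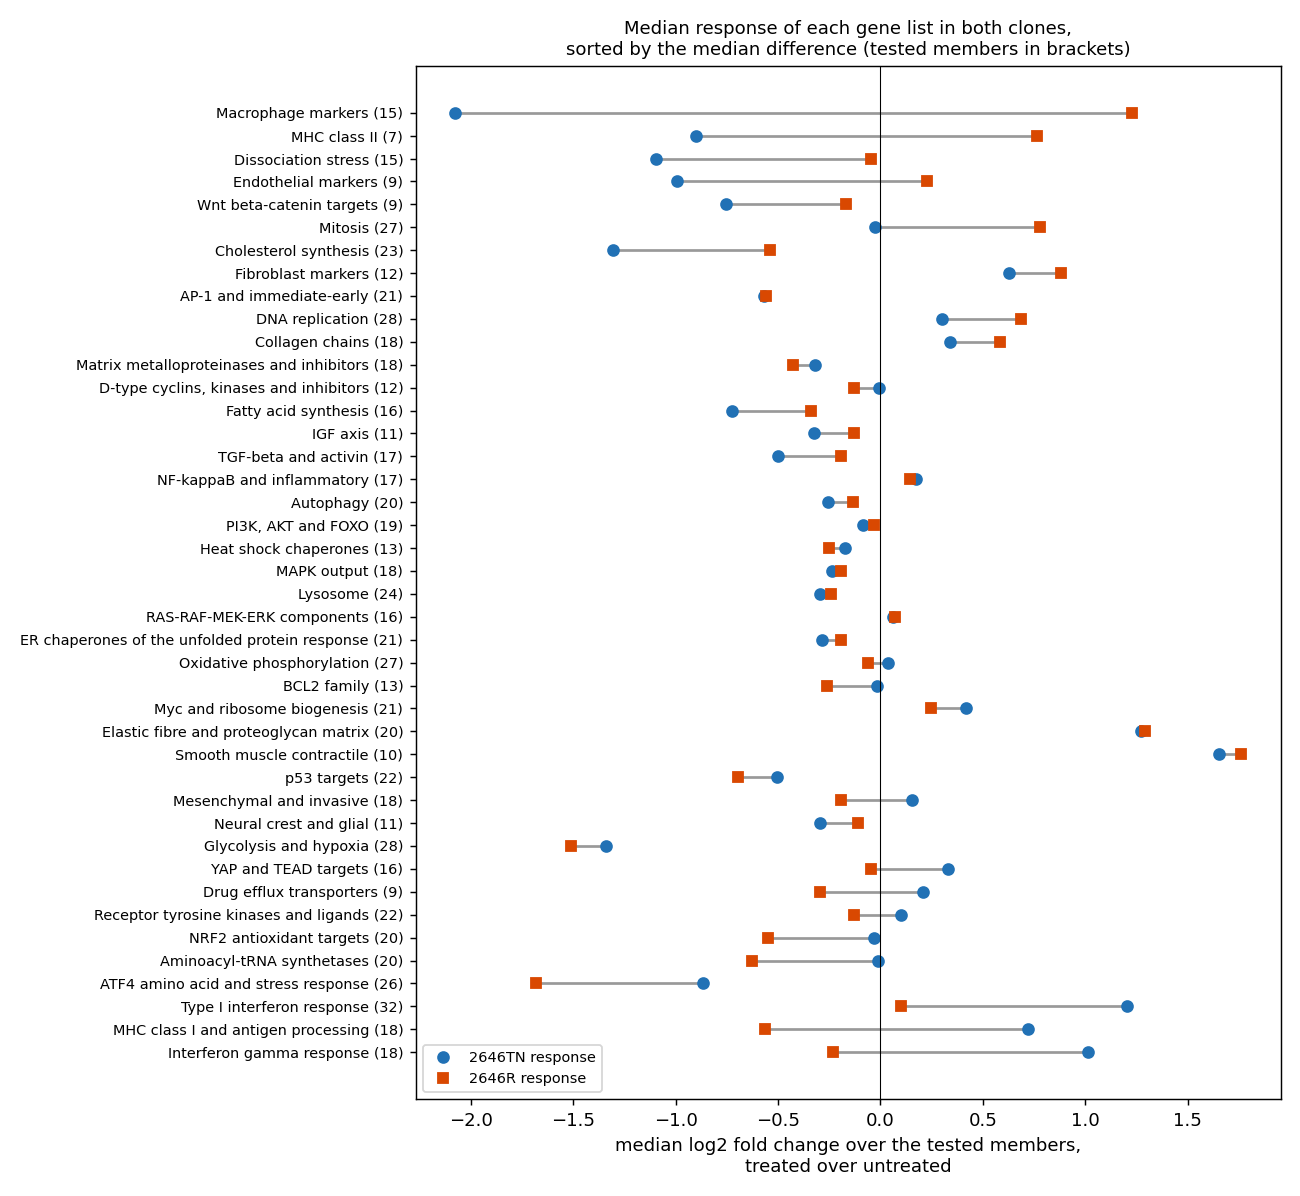
Median log2 fold change under RAFi/MEKi in 2646TN (circles) and 2646R (squares) for the 42 gene lists with at least 7 tested members, sorted by the median difference in response, with the largest at the top. Macrophage markers (-2.08 and 1.23) are at the top and interferon gamma genes (1.01 and -0.23) at the bottom, while glycolysis and hypoxia genes are low in both clones.

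The other lists held few calls by number. Shares called, beside 4.15% of all genes, were 33.3% for the drug efflux transporter list and 18.8% for the YAP and TEAD list. They were 11.1% for metalloproteinases and inhibitors, 10% for smooth muscle, 8.3% for lysosome, 5.9% for TGF-beta and 4.5% for p53 targets. Each of these shares rests on few genes. In the YAP and TEAD list (16 tested) Tead4 (-2.05 ± 0.55, edgeR adjusted p = 0.0274) and Crim1 (-1.003 ± 0.26, 0.0221) were lower and Tead1 (0.60 ± 0.18, 0.0478) was higher. Among 18 matrix metalloproteinase and inhibitor genes the inhibitor gene Timp3 (-2.05 ± 0.52, 0.0286) and the urokinase receptor gene Plaur (-1.52 ± 0.44, 0.0432) were lower. Tgfb2, which encodes a ligand of the TGF-beta family, was the only called gene of 17 in its list (1.53 ± 0.43, 0.0424), with a fall in 2646TN from 64.1 to 19.2 CPM beside 111 and 96.9 CPM in 2646R. Single omissions ended the calls of Tead4 (4 of 12, edgeR adjusted p up to 0.0881), Crim1 (6 of 12, up to 0.123), Tead1 (9 of 12, up to 0.102), Timp3 (8 of 12, up to 0.0796), Plaur (9 of 12, up to 0.138) and Tgfb2 (6 of 12, up to 0.113). The contractile gene Smtn (-1.05 ± 0.22, 0.00479) was the only call among 10 smooth muscle genes and held in each omission. Among 22 p53 targets Phlda3, which encodes an inhibitor of AKT, was lower (-1.26 ± 0.21, edgeR adjusted p = 0.000303), from 169 ± 24.3 to 99.4 ± 15.4 CPM in 2646R and from 64.0 ± 6.08 to 90.4 ± 12.5 CPM in 2646TN, while the cell cycle inhibitor gene Cdkn1a was not called (-0.88 ± 0.45, 0.313). In the drug efflux transporter list (9 tested), which also holds the lipid exporter gene Abca1, Abca1 (-1.96 ± 0.45, 0.0116) and Abcc1 were lower and Abcg2 (1.30 ± 0.37, 0.0391) was higher. Abcc1 was also counted among the NRF2 targets. Single omissions ended the calls of Abca1 (2 of 12, up to 0.0553) and Abcg2 (9 of 12, up to 0.0845). In the lysosome list the protease gene Ctsl (-1.13 ± 0.29, 0.0227, lost without 5 of the 12 tumours in turn, up to 0.0902) was lower and the lipase gene Lipa (1.10 ± 0.25, 0.00803) higher. Receptor tyrosine kinases and ligands (22 tested), RAS-RAF-MEK-ERK components (16), oxidative phosphorylation (27), the BCL2 family (13) and Myc and ribosome biogenesis genes (21) had 0 calls in edgeR, with medians between -0.35 and -0.03. Mitf, the master regulator of pigment cells, stood at 0.46 ± 0.35 (adjusted p = 0.540).

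The other TN and R pair of the series, 14559TN and 14559R, has its own response difference, made from 12 other tumours. That difference held 1596 called genes (12% of those tested), 1054 higher (7.93%) and 542 lower (4.08%). Across genes the 2646 and 14559 differences correlated at a Pearson's r of -0.04, a description over genes, which are not independent. Of the 314 genes higher in the 2646 difference, 32 were also higher in the 14559 difference (10.19% of the 2646 list, 3.04% of the 14559 list) and 26 were lower there (8.28% and 4.8%). Of the 237 lower genes, 21 were lower in the 14559 difference (8.86% and 3.87%) and 48 were higher there (20.25% and 4.55%).

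The contrast of the differences themselves, 2646 minus 14559, called 1307 genes (9.84%) in edgeR, among them 300 of the 551 (54.4%). Of the 27 mitosis genes 19 were called lower in this contrast (6.02% of all genes), with 26 of them called higher in the 14559 difference (7.93% of all genes), whose median was 2.96 beside 0.78 in the 2646 difference. Of 23 cholesterol genes 10 were lower in it, with medians of 0.74 (2646) and 1.94 (14559). Of 15 macrophage markers 10 were higher in it (3.82% of all genes), with medians of 3.36 and -1.14. Of 26 ATF4 genes 9 and of 20 NRF2 genes 10 were lower in it, with medians of -0.70 and 0.71, and of -0.55 and 0.83. Lgals3 had -4.08 ± 0.45 in the 2646 and 1.71 ± 0.43 in the 14559 difference (edgeR adjusted p = 5.726e-06 for the contrast). For Npnt the values were 3.42 ± 0.36 and -0.71 ± 0.50 (3.995e-05) and for Cdh6 -3.35 ± 0.62 and 2.24 ± 0.62 (0.000207). Snai2 was lower in both (-2.60 ± 0.45 and -2.05 ± 0.43, adjusted p = 0.636 for the contrast), and Sulf1 was higher in both (4.36 ± 0.61 and 2.06 ± 0.57, 0.0828).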

How the data were processed

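QuantSeq 3′ mRNA libraries were made from GFP-positive cells sorted from tumours, per the labels' protocols. The deposited values are raw gene counts, made by the authors with STAR 2.6.0c on GRCm38 (per the submitters' processing notes) and strand-aware featureCounts 1.6.2 (per the file headers). The files list 54532 features, of which 54409 have a symbol. All 30 libraries in 10 groups entered 1 fit in R 4.3.3 with edgeR 4.0.16 (TMM scaling, filterByExpr, robust quasi-likelihood test, 20 residual degrees of freedom, biological coefficient of variation 18.2%), and p-values were adjusted over 13286 genes. The response difference was a contrast of this fit, and an SE is the log2 value divided by the square root of its F. Summed list levels use raw library totals. Depth of 3022801 to 5278453 counts sets the counting error, and intervals and floors (3 counts) cover that error only.

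Replicates are tumours with their own codes, numbered here in accession order. The chi-square statistic per degree of freedom between replicates was 4.26 to 17.2, so no library was counted as a repeat. Named were the 12 called genes with the largest positive and the 12 with the largest negative difference among those with at least 5 CPM in a group and no overlap of replicate ratios, up to 3 called members of each of 51 lists, and 16 genes always given. Npnt, other called members of lists with few calls, and the genes of the closing section's last part were added after their values were seen. The members and lists were chosen with earlier results of these data known. The contrast was also run on data simulated from the means and spread of the fit, with changes set in genes of at least 5 CPM. Of 100 genes set to differ by 1 on the log2 scale it called 36, and of 100 set to differ by 2 it called 84. It made 6 false calls. Alternatives were median-of-ratios size factors, DESeq2 1.42.0, 2 other filters, a fit of the groups compared, the macrophage covariate and the omission of single tumours. The other 6 libraries of the series entered the fit only through its shared spread. Some results are not reported here.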

Additional observations from a re-analysis of the deposited data

Results flagged for a closer look

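The 2646 response difference is itself a test between groups under the same contrast, and 551 genes passed it in edgeR. The 2646 and 14559 pairs were compared by the contrast of their response differences, which called 1307 genes in edgeR. Every value below is the log2 difference of 2646 minus that of 14559, and each passed an adjusted p under 0.05 in edgeR over all tested genes.

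Among the genes named by size or always given, lower values in the 2646 pair were -7.2 for the corneodesmosin gene Cdsn, -6.51 for Trib3, -5.79 for Lgals3, -5.6 for Cdh6, -4.03 for the magnesium transporter gene Nipal1 and -3.09 for Asns. Smaller ones were -2.97 for Cdkn1a, -2.73 for Cpeb2, -2.55 for Ddit3, -2.42 for Etv4, -1.96 for Mki67, -1.91 for Ccnd1 and -1.3 for Vegfa.

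Higher values were 5.05 for the macrophage gene C1qa, 5.58 for Rapgefl1, 6.84 for Moxd1, 7.79 for Tmem176a, 8.2 for Tmem176b and 9.72 for Aldh1a7. The size for Aldh1a7 depends on the prior count, because untreated 2646R had 0 counts. Groups of 3 tumours are too small for a test of single outlying tumours.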

How the results depend on the processing

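With no filter on low counts the 2646 difference called 977 genes (593 higher, 384 lower) and the share with the larger untreated gap was 74.6%. With the macrophage covariate it called 37 (24 higher, 13 lower), that share was 62.2%, and 348 genes were called for 2646 minus 14559. The cause was not tested, though with the covariate the median SE of the 551 genes went from 0.296 to 0.44. Omitting single tumours gave 352 to 831 called, 184 to 488 higher and 137 to 343 lower genes, a share of 76.7% to 83.8%, 1108 to 1743 genes for 14559 and 969 to 1542 for 2646 minus 14559. DESeq2 called 769, of which 549 were among the 551. Cd74 reversed, to -0.638 with the covariate. Of 76 named called genes 44 held without each single tumour, and 8 were called under every alternative. No paired analysis was possible because each tumour has its own code and replicate numbers follow accession order. Each clone is a single clone, and 3′ tags of 3 tumours limit what rare transcripts show.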

Other observations

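Transcripts outside the lists, chosen after their values were seen, also had lower responses in 2646R. Of 14 tested host genes of small nucleolar RNAs 4 were called lower in edgeR (beside 1.78% of all genes) and 1 higher (2.36%), 13 values were below 0, and the median was -0.75. Snhg1 had -1.16 ± 0.18 (edgeR adjusted p = 0.000198), Gas5 -1.08 ± 0.19 (0.000665), Snhg12 -1.46 ± 0.27 (0.00104) and Zfas1 -1.05 ± 0.21 (0.00327), while Snhg18 had 1.16 ± 0.24 (0.00381). Neat1, the long RNA that builds paraspeckles, stood at 1562 and 1533 CPM in untreated and treated 2646TN and at 2089 and 683.6 CPM in 2646R (-1.59 ± 0.25, edgeR adjusted p = 0.000198).

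Genes of retinoid handling differed in both directions. The retinaldehyde reductase gene Dhrs3 had 1.74 ± 0.29 (edgeR adjusted p = 0.000392) and Aldh1a1, whose reads may be shared with Aldh1a7, 4.24 (0.0281), while the retinoic acid-binding protein gene Crabp2 had -2.52 ± 0.57 (0.00917). Among mitochondrial and related genes Ghitm had -1.65 ± 0.22 (edgeR adjusted p = 2.817e-05), the chaperone gene Hspa9 -1.18 (0.00226), the protease gene Lonp1 -1.18 (0.00715) and the stress factor gene Atf5 -1.11 (0.00959). These are values only, with no test of the groups.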
